A study of Caenorhabditis elegans with 8 samples.

Results

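The nlp-29 cluster is a tight group of 6 small peptide genes on chromosome V of Caenorhabditis elegans: nlp-34, nlp-31, nlp-30, nlp-29, nlp-28 and nlp-27, in the order in which they lie. They were taken by their WormBase symbols from 46739 genes counted in each library, and all 6 were among the 12021 genes that passed the filter on low counts. The cluster was chosen by the counts of nlp-29 and nlp-34 in these same libraries, which earlier results had shown to be higher in treated worms. The fold changes between the groups and the tests of the members given below are therefore a description of these libraries and add no independent support.

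Whole worms given 5-Ph-IAA, an auxin analog, made up 4 libraries, and whole worms given ethanol made up the other 4. All had eaten E. coli OP50 until the L4 larval stage, were then treated for 24 h and were collected as adults on day 1. Both groups carried the same genotype, labelled a neuronal DAF-15 AID worm. AID is the auxin-inducible degron, a tag through which a plant F-box protein delivers the tagged protein to the proteasome once auxin is given. DAF-15, the Raptor of worms, belongs to TORC1, a nutrient-sensing kinase complex. The sources used here do not give the promoter that drives the F-box protein, the dose of 5-Ph-IAA or whether each replicate was its own culture. The p-values therefore reflect only how far these libraries spread, which may be partly technical. No library of worms without the degron was analysed, so the compound and the loss of the protein cannot be told apart.

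The nlp-29 cluster belongs to the innate defence of the worm's epidermis, the single-layered skin that secretes the cuticle. Its products are short secreted peptides rich in glycine and aromatic residues, and NLP-31 has been shown to act against fungi in culture. Transcription of nlp-29 is the standard reporter for infection by the fungus Drechmeria coniospora, for wounding and for osmotic stress. In the epidermis the signal passes from the receptor DCAR-1 through the G protein GPA-12 and protein kinase C to a p38 MAP kinase cascade and the STAT-like factor STA-2. Peptides of this kind also act on neurons: NLP-29 has been reported to signal to the receptor NPR-12 in the worm.

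The cluster spans 10946 bases, from 3978825 to 3989770 on chromosome V (assembly WBcel235, Ensembl annotation), and the annotation holds these 6 genes and no other in that span. The gene nlp-34 (WBGene00015046, 3978825 to 3979134) lies on the minus strand at one end. The other five lie on the plus strand: nlp-31 (WBGene00003769, 3980055 to 3980622), nlp-30 (WBGene00003768, 3981980 to 3982741), nlp-29 (WBGene00003767, 3984425 to 3984847), nlp-28 (WBGene00003766, 3987900 to 3988316) and nlp-27 (WBGene00003765, 3989378 to 3989770). Each has 1 transcript of 2 exons, and the coding parts are 59 codons in nlp-34, 65 in nlp-28, 69 in nlp-30, 72 in nlp-27, 73 in nlp-29 and 75 in nlp-31. The gaps between neighbouring genes run from 920 bases (nlp-34 to nlp-31) to 3052 bases (nlp-29 to nlp-28). Genes of such a cluster can resemble each other in sequence, which was not compared here. Reads with more than 1 alignment stand in a line of their own in the deposited counts and in no gene's value. The separate value of any one member is therefore uncertain, to a degree that was not measured.

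Each library held 7354710 to 10893322 reads assigned to genes, of which 1080 to 1615 belonged to the cluster. No library of either group stood apart in the level of any member or in the sum of the members by Dixon's criterion at 95%, over 14 groups of 4 libraries. The transcript of daf-15 itself averaged 119.1 ± 6.20 CPM (read counts scaled to library size with TMM factors) in 5-Ph-IAA libraries and 121.1 ± 6.89 CPM in ethanol libraries (SD, n = 4 each). The degron acts on the protein, so that transcript does not check the treatment.

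The cluster did not move as one: the means of nlp-34, nlp-30 and nlp-29 stood well above their ethanol level with 5-Ph-IAA, and those of nlp-31, nlp-28 and nlp-27 lay close to it. Of the 6 members, 2 rose (nlp-34 and nlp-29) and 0 fell in edgeR's quasi-likelihood test at a Benjamini-Hochberg adjusted p under 0.05, against 0.0832% of all 12021 tested genes called higher and 0.0166% called lower. With the replicate number as a block 3 rose, nlp-30 being the added one, and 0 fell, against 0.474% of all tested genes called higher and 0.258% called lower. The median log2 fold change of the 6 was 0.52, with 5 above 0 and 1 below, and that of all tested genes was -0.0009. At an unadjusted p under 0.05 there were 3 members, and 530 of all tested genes. In whole-worm RNA, a smaller or larger epidermis and less or more RNA per epidermal cell cannot be told apart.

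**Figure D1:**
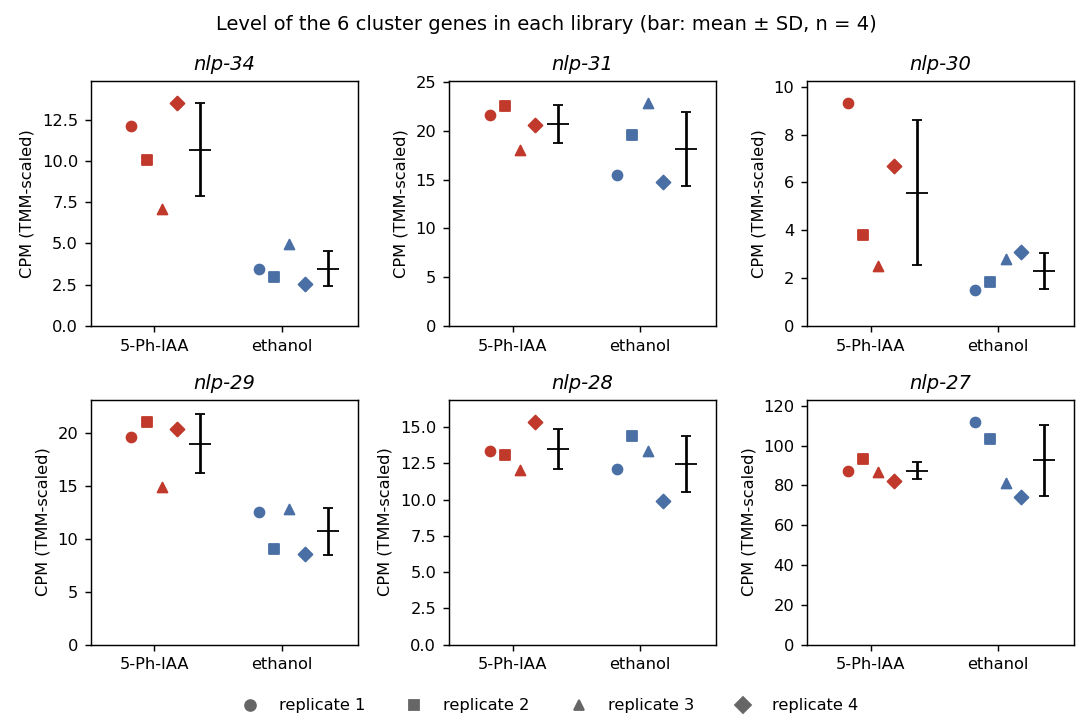
Level of each of the 6 genes in CPM on TMM-scaled library sizes (vertical axes from 0), with 5-Ph-IAA left of ethanol; each symbol is 1 library, its shape the replicate number, and the black bar the mean ± SD of 4 libraries. The groups stand clear of each other for nlp-34 and nlp-29 and overlap for nlp-31, nlp-30, nlp-28 and nlp-27.

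The gene nlp-34 had the largest fold change of the cluster. Its level was 12.1, 10.04, 7.08 and 13.5 CPM in 5-Ph-IAA libraries 1 to 4, against 3.44, 2.99, 4.95 and 2.52 CPM in ethanol libraries 1 to 4. The lowest 5-Ph-IAA library stood above the highest ethanol library, and both of these carried the number 3. The means were 10.7 ± 2.79 CPM in 5-Ph-IAA libraries and 3.47 ± 1.05 CPM in ethanol libraries (SD, n = 4 each), a 3.14-fold difference (log2 1.65, SE 0.23). In the fit over all genes without the block nlp-34 had the smallest p-value (edgeR adjusted p = 0.00158), and in the blocked fit it came 11th (edgeR adjusted p = 2.18e-05). Its log2 fold change lay between 1.35 and 2.01 over all 19 alternatives tried and passed the threshold in each.

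The gene nlp-29, the infection and wounding reporter, had 19.6, 21.1, 14.9 and 20.4 CPM in 5-Ph-IAA libraries 1 to 4, against 12.5, 9.09, 12.8 and 8.58 CPM in ethanol libraries. The groups did not overlap, and again the closest approach was between the 2 libraries numbered 3. Its means of 19.02 ± 2.79 CPM with 5-Ph-IAA and 10.8 ± 2.23 CPM with ethanol (SD, n = 4 each) differed 1.79-fold (log2 0.84, SE 0.15, edgeR adjusted p = 0.0130). Leaving out 5-Ph-IAA replicate 1, 2 or 4 or ethanol replicate 4 ended this call (adjusted p = 0.0585, 0.0889, 0.0734 and 0.0869), while the log2 fold change stayed between 0.74 and 0.94 over the 8 single omissions. In the blocked fit nlp-29 had edgeR adjusted p = 0.000381 and kept its call without any 1 of the 4 pairs (1.56e-05 to 0.0206). Groups that did not overlap with 5-Ph-IAA on top were found for these 2 members of 6, and for 1.54% of all tested genes.

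The gene nlp-30, which lies between nlp-31 and nlp-29, was the least even member. It had 9.31, 3.81, 2.49 and 6.69 CPM in 5-Ph-IAA libraries 1 to 4, against 1.52, 1.84, 2.79 and 3.08 CPM in ethanol libraries. Libraries 1 and 4 of the 5-Ph-IAA group were high, library 2 stood just above the ethanol range, and library 3 fell inside it. The means were 5.58 ± 3.04 CPM in 5-Ph-IAA libraries and 2.31 ± 0.75 CPM in ethanol libraries (SD, n = 4 each), or 2.42-fold (log2 1.27, SE 0.38), which did not pass (edgeR adjusted p = 0.720). With the block it did (log2 1.20, SE 0.29, edgeR adjusted p = 0.0394), and without 5-Ph-IAA replicate 3 it did with no block (log2 1.503, edgeR adjusted p = 0.0334). The blocked call ended without pair 1 (log2 0.74, edgeR adjusted p = 0.483) or pair 2 (1.24, 0.238), and DESeq2 made none, with an adjusted p of 0.132 without the block and 0.543 with it.

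The members nlp-31, nlp-28 and nlp-27 showed no such separation. The gene nlp-31 had 21.7, 22.5, 18.1 and 20.6 CPM in 5-Ph-IAA libraries, against 15.4, 19.6, 22.8 and 14.7 CPM in ethanol libraries. Its ethanol replicate 3 was the highest of all 8, and the fold change of 1.15 (log2 0.20, SE 0.13) did not pass (edgeR adjusted p = 0.999, or 0.798 in the blocked fit). The gene nlp-28 had 13.4, 13.1, 12.1 and 15.4 CPM in 5-Ph-IAA libraries, against 12.1, 14.4, 13.3 and 9.89 CPM in ethanol libraries. All but the highest 5-Ph-IAA value lay inside the ethanol range, and the two-sided test gave edgeR adjusted p = 0.999 for a log2 fold change of 0.13 (SE 0.14). The gene nlp-27, the most abundant member, had 87.3, 93.1, 86.9 and 82.4 CPM in 5-Ph-IAA libraries, against 112.0, 103.3, 81.0 and 74.0 CPM in ethanol libraries. The 5-Ph-IAA values sat within the wider ethanol range, with edgeR adjusted p = 0.999 for a log2 fold change of -0.08 (SE 0.12).

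Apart from nlp-31, the log2 fold changes fell along the chromosome from nlp-34 to nlp-27. Along the chromosome the log2 fold changes ran 1.65, 0.20, 1.27, 0.84, 0.13 and -0.08 from nlp-34 to nlp-27, so nlp-31 stood low between nlp-34 and nlp-30, which lie 920 and 1357 bases from it. As a set, the 3 members with the lowest ethanol levels had the largest fold changes. Neither this order nor that by position was tested. By mean ethanol CPM the order from the lowest was nlp-30, nlp-34, nlp-29, nlp-28, nlp-31 and nlp-27, and nlp-30, nlp-34 and nlp-29 are also the 3 members with the largest fold changes, though both quantities use the same ethanol libraries. In absolute terms the largest gain was that of nlp-29, by 8.27 CPM between the group means, followed by nlp-34 with 7.21 CPM, nlp-30 with 3.27 CPM, nlp-31 with 2.58 CPM and nlp-28 with 1.04 CPM, while the mean of nlp-27 was 5.15 CPM higher in ethanol libraries (-5.15 as 5-Ph-IAA minus ethanol).

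**Figure D2:**
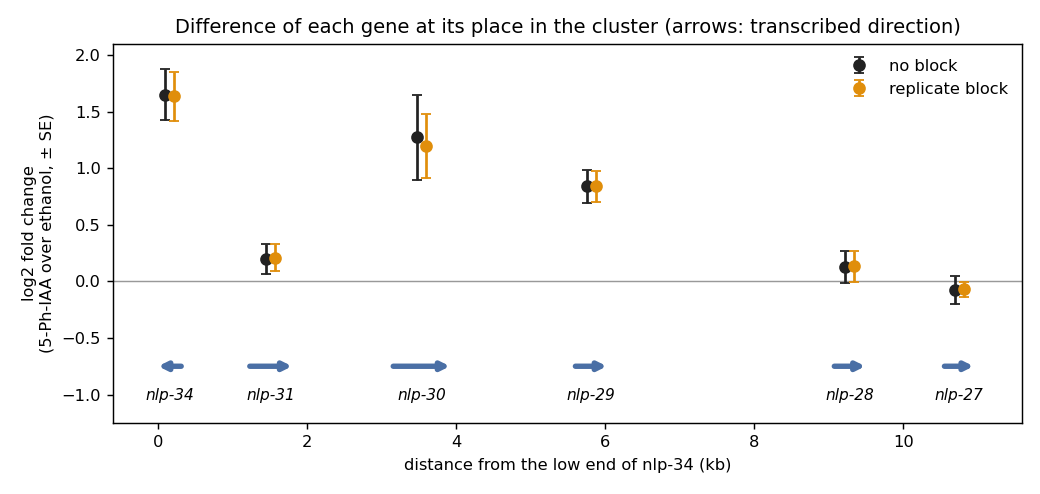
Log2 fold change (5-Ph-IAA over ethanol, vertical axis, ± SE) of each gene against its distance in kb from the low end of nlp-34 (horizontal axis), without the replicate block in black and with it in orange, set slightly apart for legibility; arrows give each gene's extent and direction of transcription. Of the high genes, nlp-34 is parted from nlp-30 and nlp-29 by nlp-31 at 0.20, and nlp-28 and nlp-27 follow near 0.

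Compared per length, the members differed widely in abundance. In 5-Ph-IAA libraries nlp-27 stood at 277 ± 13.9 CPM per kb of annotated exon, followed by nlp-29 at 53.7 ± 7.87, nlp-31 at 45.9 ± 4.25, nlp-34 at 40.5 ± 10.6, nlp-28 at 40.2 ± 4.12 and nlp-30 at 7.81 ± 4.26 CPM per kb (SD, n = 4). In ethanol libraries nlp-27 stood at 293 ± 56.9 CPM per kb, followed by nlp-31 at 40.2 ± 8.38, nlp-28 at 37.1 ± 5.75, nlp-29 at 30.4 ± 6.30, nlp-34 at 13.2 ± 3.98 and nlp-30 at 3.23 ± 1.05 CPM per kb (SD, n = 4). The ranges of nlp-31, nlp-28 and nlp-29 overlapped in ethanol libraries, as did those of nlp-29, nlp-31, nlp-34 and nlp-28 in 5-Ph-IAA libraries, so the order within these sets is not resolved. In both groups nlp-27 stood clear above the rest and nlp-30 clear below, and in ethanol libraries nlp-34 stood clear below the 3 in the middle. Over all 8 libraries nlp-27 stood above 96.5% of tested genes per length and nlp-30 above 29.1%. The exon length of nlp-30 depends on the annotation, since its RefSeq model starts at 3982356 and not at 3981980. Per kb of coding sequence nlp-30 was still the lowest member, with 26.9 CPM per kb in 5-Ph-IAA libraries and 11.1 CPM per kb in ethanol libraries.

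The make-up of the cluster's reads differed accordingly. The share of nlp-27 averaged 55.9% ± 4.23 in 5-Ph-IAA libraries and 66.0% ± 5.33 in ethanol libraries (SD, n = 4 each). The share of nlp-34 averaged 6.76% ± 1.52 in 5-Ph-IAA libraries and 2.50% ± 0.74 in ethanol libraries, and that of nlp-29 averaged 12.1% ± 1.09 in 5-Ph-IAA libraries and 7.73% ± 1.35 in ethanol libraries. Set against nlp-27, which shares library and depth with its neighbours, nlp-34 gave 123.1 ± 35.9 reads per 1000 reads of nlp-27 in 5-Ph-IAA libraries and 38.7 ± 15.04 in ethanol libraries, without overlap. The same ratio for nlp-28 was 154.7 ± 22.1 in 5-Ph-IAA libraries and 136.4 ± 23.005 in ethanol libraries, with overlap. Since nlp-34 and nlp-29 were chosen for being higher, these shares and ratios are a description and add no independent support. The summed level of all 6 members was 156.9 ± 10.5 CPM in 5-Ph-IAA libraries and 139.7 ± 19.7 CPM in ethanol libraries, and these ranges overlapped. Without nlp-27, which supplied 51.8% to 61.4% of the cluster's reads in 5-Ph-IAA libraries and 58.8% to 71.3% in ethanol libraries, the sum was 54.7 to 76.6 CPM in 5-Ph-IAA libraries and 38.8 to 56.7 CPM in ethanol libraries, and the lowest 5-Ph-IAA library again fell inside the ethanol range.

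Several members had their extremes in the same library. Within the 5-Ph-IAA group, replicate 3 held the lowest value of 5 of the 6 members, nlp-27 being the exception. Within the ethanol group, replicate 4 held the lowest value of 5 members, nlp-30 being the exception, and replicate 3 held the highest value of nlp-34, nlp-31 and nlp-29. Paired by replicate number, 6 of 6 members were higher with 5-Ph-IAA in pair 4, 5 in pair 1, 4 in pair 2 and 3 in pair 3. The median log2 ratio over the 6 members was 0.88 in pair 4, 0.57 in pair 1, 0.63 in pair 2 and -0.02 in pair 3. These counts and medians include nlp-34 and nlp-29, which were chosen for being higher, and are a description. Only nlp-34 and nlp-29 were higher with 5-Ph-IAA in 4 of 4 pairs, as were 7.17% of all tested genes. For nlp-34 the ratio was 3.53-fold, 3.36-fold, 1.43-fold and 5.36-fold in pairs 1 to 4, and for nlp-30 it was 6.14-fold, 2.07-fold, 0.893-fold and 2.17-fold.

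**Figure D3:**
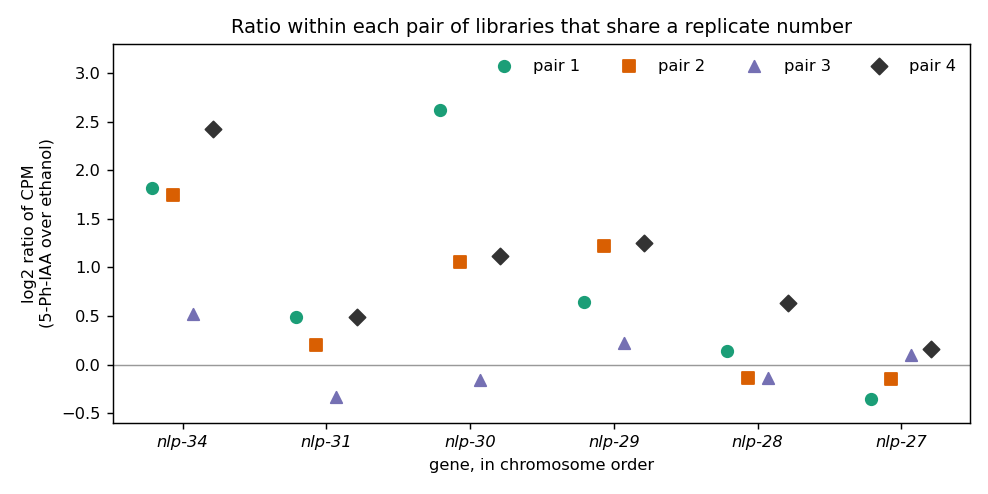
Log2 ratio of CPM, 5-Ph-IAA over ethanol (vertical axis), within each of the 4 pairs of libraries that share a replicate number, for the 6 genes in chromosome order (horizontal axis). Pair 3 gives the lowest ratio of nlp-34, nlp-31, nlp-30, nlp-29 and nlp-28, and the 4 pairs of nlp-27 lie on both sides of 0.

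The members differed in how far their libraries spread. The coefficient of variation of nlp-30 was 54.6% over the 5-Ph-IAA libraries, where its counts alone would give 14.1%, and 32.4% over the ethanol libraries, where they would give 22.1%. That of nlp-31 over the 5-Ph-IAA libraries was 9.24%, against 7.47% from counting, and that of nlp-28 was 10.2%, against 9.25%. In edgeR's estimate the biological coefficient of variation was 32.2% for nlp-30, where the trend over genes of its abundance gives 16.2%, and 17.1% for nlp-34, where the trend gives 13.99%. The abundant nlp-27, with 639 to 898 reads per library, had 11.8% against a trend of 6.33%. The gene nlp-30, with 19 to 92 reads in 5-Ph-IAA libraries and 11 to 33 in ethanol libraries, had the largest SE of the 6.

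The genes beside the cluster had very few reads. The 3 nearest protein-coding genes on either side (cyp-34A10, str-82 and str-83 at the nlp-34 end, K09D9.9, srx-62 and srh-8 at the nlp-27 end) held 9 reads in all in 5-Ph-IAA libraries and 12 in ethanol libraries, and none passed the filter on low counts. The str, srx and srh genes are named as chemoreceptor genes, and cyp-34A10 as a cytochrome P450.

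The known signalling pathway upstream of nlp-29 was looked at through the transcripts of its genes in whole worms, so the values are not those of the epidermis alone. Of 20 genes listed, all 20 were tested, and 0 passed in edgeR without or with the block, in DESeq2 or in limma-voom, and 0 had an unadjusted edgeR p under 0.05. With 0.0998% of all tested genes past the threshold without the block and 0.732% with it, a count of 0 among 20 is near the background and says nothing particular of this list. Their log2 fold changes ran from -0.13 to 0.28 with a median of 0.007, and 10 stood above 0. The receptor gene dcar-1 averaged 28.2 ± 1.70 CPM in 5-Ph-IAA libraries and 25.5 ± 2.67 CPM in ethanol libraries (log2 0.15, SE 0.10). The G protein gene gpa-12 averaged 7.99 ± 1.08 CPM in 5-Ph-IAA libraries and 8.80 ± 2.82 CPM in ethanol libraries (log2 -0.13, SE 0.20). The protein kinase C gene tpa-1 had a log2 fold change of -0.03 (SE 0.10).

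The adaptor gene tir-1, the worm SARM, had a log2 fold change of -0.04 (SE 0.10). The kinases below it gave -0.07 (SE 0.09) for nsy-1, 0.03 (SE 0.09) for sek-1 and -0.13 (SE 0.11) for pmk-1, the p38 itself. The transporter-like gene snf-12, which acts with STA-2, had 0.28 (SE 0.27) at 3.70 ± 1.105 CPM in 5-Ph-IAA libraries and 3.06 ± 0.997 CPM in ethanol libraries. The factor gene sta-2 averaged 14.02 ± 0.79 CPM in 5-Ph-IAA libraries and 14.04 ± 3.25 CPM in ethanol libraries (SD, n = 4 each). The Tribbles-like kinase gene nipi-3 had 0.09 (SE 0.08), and the epidermal GATA factor gene elt-3 had 0.05 (SE 0.12). The edgeR adjusted p was 0.999 for each of these without the block. Transcript levels say nothing of the activity of these proteins.

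Among the other peptide genes of the epidermis, 1 caenacin gene passed with the block. Caenacins are glycine-rich peptides of the same defence, driven in part by TGF-beta signalling. Of 11 caenacin genes listed 6 were tested, and 0 passed in edgeR without the block. At an unadjusted edgeR p under 0.05 there were 3 (cnc-6, cnc-2 and cnc-4), against 530 of all 12021 tested genes. In limma-voom 0 passed, where 0.0749% of all tested genes did, and in DESeq2 1 passed, where 0.241% did. With the block 1 rose, cnc-6 on chromosome III, at 3.42 ± 2.03 CPM in 5-Ph-IAA libraries and 0.790 ± 0.61 CPM in ethanol libraries (SD, n = 4 each; log2 2.14, SE 0.38, edgeR adjusted p = 0.000566 with the block and 0.402 unblocked). The ethanol libraries 1 to 4 held only 1, 9, 12 and 5 reads of cnc-6. The blocked call ended without pair 2 (log2 1.93, edgeR adjusted p = 0.0655), and the gene called in DESeq2 was the same (adjusted p = 0.0194). The gene cnc-2 stood at 7.17 ± 2.25 CPM with 5-Ph-IAA and 4.47 ± 0.87 CPM with ethanol (log2 0.71, SE 0.22, edgeR adjusted p = 0.669). For cnc-4, named after its values were seen, the levels were 14.1 ± 4.52 CPM with 5-Ph-IAA and 10.3 ± 1.35 CPM with ethanol (log2 0.46, SE 0.18, edgeR adjusted p = 0.999). The median over the 6 tested caenacins was 0.29.

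Of 5 glycine-rich nlp genes outside the cluster (nlp-24, nlp-25, nlp-26, nlp-32 and nlp-33), 4 were tested and 0 passed in edgeR without or with the block, in DESeq2 or in limma-voom, and 1, nlp-24, had an unadjusted edgeR p under 0.05. Their median log2 fold change was -0.12. Over all 12021 tested genes, 0.0998% passed without the block, 0.732% with it, 0.241% in DESeq2 and 0.0749% in limma-voom. An unadjusted edgeR p under 0.05 was found for 530 of them. A count of 0 among 4 is therefore near the background. The gene nlp-24, on chromosome V as well, averaged 58.1 ± 10.6 CPM in 5-Ph-IAA libraries and 69.4 ± 3.75 CPM in ethanol libraries (log2 -0.25, SE 0.10, edgeR adjusted p = 0.999). The gene nlp-33, a family member also known as an infection-induced antimicrobial peptide gene, had a log2 fold change of -0.16 (SE 0.15).

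Triggers of nlp-29 other than infection were looked at through 2 further lists. Loss of the furrow collagens, which form the rings of the cuticle, is known to switch nlp-29 on. Of 6 furrow collagen genes 3 were tested, and 0 passed in edgeR without or with the block, in DESeq2 or in limma-voom (dpy-9 had an unadjusted edgeR p under 0.05). Their log2 fold changes were 0.86 (SE 0.34) for dpy-9, 0.41 (SE 0.36) for dpy-10 and 0.06 (SE 0.24) for dpy-8, all at means under 5 CPM, and dpy-2, dpy-3 and dpy-7 fell below the filter. Of 8 genes of the osmotic response 7 were tested and 0 passed by the same fits. The 1 gene with an unadjusted edgeR p under 0.05 was osm-11, at 255.7 CPM in 5-Ph-IAA libraries and 278.6 CPM in ethanol libraries (log2 -0.12, SE 0.06). Among them gpdh-1, the glycerol synthesis gene induced by salt, averaged 22.5 CPM with 5-Ph-IAA and 22.3 CPM with ethanol, and like osm-11 it was named after its values were seen. The largest log2 fold changes of this list were -0.16 (SE 0.09) for the kinase gene gck-3 and 0.15 (SE 0.20) for osm-7. Over all 12021 tested genes, 0.0998% passed without the block, 0.732% with it, 0.241% in DESeq2 and 0.0749% in limma-voom. An unadjusted edgeR p under 0.05 was found for 530 of them. The counts of 0 in both lists are therefore near the background.

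Of 7 genes of the DBL-1 TGF-beta pathway 7 were tested, and 0 passed in edgeR without or with the block, in DESeq2 or in limma-voom (none at an unadjusted edgeR p under 0.05), with the largest log2 fold changes at 0.23 (SE 0.13) for the receptor gene sma-6 and 0.14 (SE 0.09) for the receptor gene daf-4. Of 13 moulting genes 11 were tested and 0 passed by the same fits (1, mlt-8, at an unadjusted edgeR p under 0.05), with a median log2 fold change of -0.04. The largest values were 0.85 (SE 0.35) for mlt-8 and 0.37 (SE 0.22) for noah-1, a cuticle matrix gene. Over the 7 lists, 58 of 70 genes were tested and 0 passed without the block, where 0.0998% of all tested genes did, and 1 passed with it, where 0.732% did. At an unadjusted edgeR p under 0.05 without the block there were 7 of the 58, against 530 of all 12021 tested genes. The lists were chosen with earlier results known, so this count is a description.

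**Figure D4:**
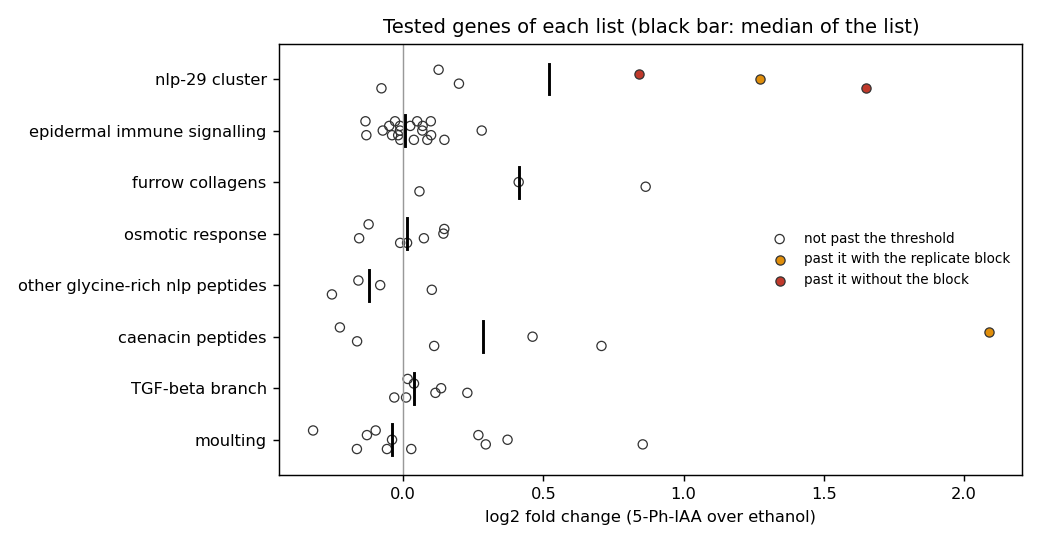
Log2 fold change (5-Ph-IAA over ethanol, horizontal axis) of every tested gene of the nlp-29 cluster and of the 7 lists; each circle is 1 gene, spread vertically for legibility, filled red where it passed the threshold without the replicate block and orange where it passed only with it, and the black bar is the median of the list. The cluster has a median of 0.52, and the circles of the signalling list lie between -0.13 and 0.28.

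Marker genes of the main tissues gave sums that overlapped between the groups. The summed level of 8 epidermal markers found of 9 listed, among them the adult cuticle collagen genes col-19, col-119 and col-140, was 8217 to 10339 CPM in 5-Ph-IAA libraries and 9458 to 10385 CPM in ethanol libraries, with 0 of the 7 tested past the threshold in edgeR without or with the block. Of these markers elt-3 and dpy-7 also stand in the lists above. Over all tested genes 0.0998% passed without the block and 0.732% with it, so 0 of 7 is near the background. Within every numbered pair the epidermal sum was lower with 5-Ph-IAA. In pairs 1 to 4 it was 8217 against 9458, 8911 against 9723, 10339 against 10385 and 9769 against 10026 CPM. The sums of the other tissues moved both ways over the pairs. Replicate 3 had the highest epidermal sum in each group, at 10339 CPM with 5-Ph-IAA and 10385 CPM with ethanol, and 5-Ph-IAA replicate 1, where nlp-30 was highest, had the lowest at 8217 CPM. The part of this in the values of the cluster was not tested. Neuronal markers (7 of 7 found) summed to 287 to 307 CPM in 5-Ph-IAA libraries and 297 to 308 CPM in ethanol libraries, and intestinal ones (7 of 7) to 64654 to 71933 CPM in 5-Ph-IAA libraries and 58058 to 74708 CPM in ethanol libraries. Body wall muscle, pharynx and germline markers also overlapped between the groups, sperm markers summed to under 4 CPM everywhere, and no marker found was at 0 in all libraries.

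For nlp-29 and nlp-34 the 3 tested genes nearest in course over the 8 libraries were looked up. Any gene has such nearest ones, and no limit was set for how near counts as alike. Likeness was taken as the mean absolute difference of log2 CPM, each gene centred on its own mean, among all tested genes. This measure includes the difference between the groups, by which nlp-29 and nlp-34 were themselves chosen. The group levels and tests of the genes picked by it are therefore a description and add no support. Nearest to nlp-29 were fipr-26 on chromosome I (mean difference 0.10), Y41G9A.5 on chromosome X (0.16) and cyp-13A10 on chromosome II (0.16). Their edgeR adjusted p was 0.999, 0.736 and 0.999. The gene fipr-26, a fungus-induced protein related gene, averaged 3.47 ± 0.84 CPM in 5-Ph-IAA libraries and 2.11 ± 0.67 CPM in ethanol libraries, with 15 to 37 reads per library. Nearest to nlp-34 were srlf-34 on chromosome II (0.22), fipr-23 on chromosome I (0.24) and F46A8.7 on chromosome I (0.24). The gene srlf-34 averaged 38.7 ± 9.60 CPM in 5-Ph-IAA libraries and 11.9 ± 5.15 CPM in ethanol libraries (log2 1.71, SE 0.31), with an adjusted p of 0.318 in edgeR and 0.000467 in DESeq2. The gene fipr-23, of the same family as fipr-26, averaged 3.93 ± 1.05 CPM in 5-Ph-IAA libraries and 0.843 ± 0.13 CPM in ethanol libraries (edgeR adjusted p = 0.00158). Each ethanol library held only 6 to 9 of its reads. The gene F46A8.7 averaged 2.33 ± 0.27 CPM in 5-Ph-IAA libraries and 0.473 ± 0.08 CPM in ethanol libraries (edgeR adjusted p = 0.00677). It had only 4 reads in each ethanol library.

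In the order of likeness to nlp-34 over the whole table, nlp-29 came 11th with a mean difference of 0.37 and nlp-30 19th with 0.41, while nlp-31, nlp-28 and nlp-27 came 740th, 1557th and 8467th. In the order of likeness to nlp-29 the members fell otherwise: nlp-31 came 627th with a mean difference of 0.34, nlp-28 773rd with 0.35, nlp-34 1384th with 0.37, nlp-27 7499th with 0.44 and nlp-30 9840th with 0.495. The mean difference between nlp-29 and nlp-34 is 0.37 in both orders, so a rank also depends on how many other genes lie near the gene of reference. The ranks of the 2 orders therefore cannot be compared with each other. These ranks rest on 8 libraries in 2 groups and are a description.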

How the data were processed

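RNA of whole worms was sequenced in 8 libraries. The deposited values are unscaled read counts for each WormBase gene identifier, in 1 table a library. FastQC 0.11.5, TopHat2, HTSeq and DESeq2 are named in the submitters' processing notes with no role given, and 3 ug of total RNA entered each library, per the labels' protocols. For the counting, the sources used here do not give the genome build, annotation release or strand setting. Library sizes and tests did not use the 5 summary lines that end each library's counts. Of a library's counts, 47.7% to 48.1% were assigned to no counted feature. A further 4.14% to 4.55% had more than 1 alignment, and 0.296% to 0.390% overlapped several genes. Symbols and coordinates come from Ensembl release 115 (WBcel235), which held 46484 of 46739 identifiers. Coordinates are 1-based.

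Genes passing filterByExpr (12021) were scaled with TMM factors (0.986 to 1.02) and tested two-sided by robust quasi-likelihood fits in edgeR 4.0.16 under R 4.3.3. Adjusted p-values follow Benjamini and Hochberg over all of them, with a threshold of 0.05. The SE was derived from the F statistic as |log2 fold change|/√F. DESeq2 1.42.0 and limma-voom (limma 3.58.1) were alternatives, and each kind of model was run on simulated counts before use. All 12 pairs of replicates differed by more than sampling noise (chi-square divided by its degrees of freedom, 2.53 to 9.10). Libraries with the same number deviated together from their group means (r 0.147, 0.130, 0.1002 and 0.144 across genes, against -0.099 to 0.010 between different numbers; prior count 2), each above 0.1, so the numbers were taken to pair them.

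The members and lists were chosen with earlier results of these data known. Genes were named by a fixed rule: all 6 members, 11 signalling genes, list genes past the threshold in either fit plus the 2 largest differences per list, the flanking genes, and the 3 nearest in pattern to nlp-29 and to nlp-34.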

Additional observations from a re-analysis of the deposited data

How the results depend on the processing

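The number of members past the threshold and higher was 2 or 3 in the 7 alternatives that keep all libraries (3 with no filter and with the replicate block) and 0 were lower in any. It ran from 1 to 3 when 1 library or 1 numbered pair was left out, at 1 without 5-Ph-IAA replicate 1, 2 or 4 or ethanol replicate 4, since nlp-29 then missed the threshold. Of the alternatives, 19 of 19 kept nlp-34 past the threshold, 15 of 19 nlp-29 and 5 of 18 nlp-30, which fell below the stricter filter (mean of at least 5 CPM). The sign of the fold change was kept in 18 of 19 for nlp-28 and 17 of 19 for nlp-27, neither of them ever called. Over all tested genes 12 passed, against 29 with DESeq2, 62 with no filter, 5 with the stricter filter, 88 with the replicate block and 24 with the replicate block in DESeq2, 6 to 18 with 1 library left out, and 85, 48, 76 and 90 with the replicate block and pair 1, 2, 3 or 4 left out. Of the genes in the 7 lists 0 passed, against 1 with DESeq2, with no filter, with the replicate block and with the replicate block in DESeq2, 0 with any 1 library left out, and 1, 0, 3 and 2 with the replicate block and pair 1, 2, 3 or 4 left out. The cause of these shifts was not tested. With the block, nlp-24 passed as lower without replicate 3 or 4 (edgeR adjusted p = 0.0297 and 0.00670), and cnc-2 as higher without replicate 3 (0.0377). The gene nlp-30 had under 100 reads in every library, and its spread between libraries exceeded both its counting error and the trend for genes of its abundance.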

Other observations

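The nearest genes beside the cluster that passed the filter on low counts lie several kilobases away and were picked after the values were seen. At the nlp-34 end this was cyp-34A9, a cytochrome P450 gene 8284 bases from nlp-34, at 3.24, 2.42, 4.59 and 4.50 CPM in 5-Ph-IAA libraries 1 to 4, against 1.93, 2.30, 2.03 and 2.80 CPM in ethanol libraries. It was higher in 4 of 4 pairs (1.601-fold, log2 0.68, SE 0.27), which missed the threshold (edgeR adjusted p = 0.999, or 0.486 in the blocked fit). At the nlp-27 end it was the pseudogene WBGene00019569, 12556 bases from nlp-27, with 9.39 ± 1.25 CPM in 5-Ph-IAA libraries and 8.48 ± 1.22 CPM in ethanol libraries (SD, n = 4 each; log2 0.13, SE 0.16).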
